A study of Mus musculus with 10 samples.

Results

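The genes described here are 10 neuropeptide precursors other than the precursor of calcitonin gene-related peptide, taken by symbol from the 51912 genes counted: Pnoc, Penk, Pdyn, Sst, Npy, Cck, Tac1, Gal, Adcyap1 and Uts2b. A row under the symbol was present for 9 of the 10 in the deposited tables, and Tac1 was found in the count files by its Ensembl identifier, ENSMUSG00000061762. They were chosen by name, but with the counts and genotype differences of these same libraries known, so their genotype values are given as a description. The libraries came from lumbar spinal motor neurons cut out of frozen sections by laser capture, with about 50 cells pooled per mouse and only cells with a visible nucleolus and an area above 200 µm2 taken. HSA-NRTN mice (n = 5, 3 female and 2 male) carry a transgene for neurturin, a ligand of the GDNF family, and were compared with wild-type littermates (n = 5, 3 female and 2 male). HSA is read here as the human skeletal actin promoter, which is known to drive expression in muscle fibres. The labels do not expand HSA, and expression of the transgene in the captured neurons was not examined here. The sources used here give no strain, age or number of transgenic lines. Each pool gave 1 Smart-seq2 library, in which cDNA of full length is amplified by PCR and molecules are not tagged, so spread between libraries holds both animal and capture differences.

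Neuropeptides are cut from longer precursor proteins at pairs of basic residues, stored in dense core vesicles and released to act on G protein-coupled receptors. Opioid precursors share a short core that begins with tyrosine, or with phenylalanine in nociceptin, while somatostatin and the urotensin II family share a phenylalanine-tryptophan-lysine core. In the spinal cord most of these peptides are best known from interneurons and sensory afferents, urotensin peptides are known from motor neurons, and galanin and pituitary adenylate cyclase-activating polypeptide are known to rise in neurons after nerve injury.

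The coding sequences that carry these cores are shown because they are what sets the opioid precursors and the Sst and Uts2b pair apart within the 10 genes. They were read from GENCODE M21 transcripts on GRCm38, 5′ to 3′ on the coding strand, which is the minus strand for all of them. Capitals mark the codons of the core. In the opioid genes the 2 codons before the core encode basic residues at all 11 cores found, 1 in Pnoc, 7 in Penk and 3 in Pdyn. A methionine codon follows the first Penk core and a leucine codon the sixth.
Pnoc, exon 3, chr14:65404842-65404898: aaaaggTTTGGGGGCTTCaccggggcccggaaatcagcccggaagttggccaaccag
Penk, first core, exon 2, chr4:4134298-4134354: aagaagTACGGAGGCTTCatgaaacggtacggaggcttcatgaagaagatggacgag
Penk, sixth core, exon 2, chr4:4133905-4133961: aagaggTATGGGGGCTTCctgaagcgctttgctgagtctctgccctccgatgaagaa
Pdyn, middle core, exon 4, chr2:129688094-129688150: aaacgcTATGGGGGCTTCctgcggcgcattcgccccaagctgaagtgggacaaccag
Pdyn, last core, exon 4, chr2:129688037-129688093: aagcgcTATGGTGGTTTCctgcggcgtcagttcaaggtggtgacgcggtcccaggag
Sst, exon 2, chr16:23889732-23889773: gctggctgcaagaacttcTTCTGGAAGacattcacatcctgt
Uts2b, exons 4 and 5 joined, within chr16:27353715-27360951: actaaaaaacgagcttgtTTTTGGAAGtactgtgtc

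Sst and Adcyap1 also share a promoter motif, shown because both genes had their highest levels in the same 2 libraries. A link between the motif and these levels was not tested. In RefSeq windows of 300 bases on GRCm38.p6, from 250 bases before to 50 after each annotated start, the letters TGACGTC, searched on both strands, were in 3 of the 10 windows of this group, which belong to 8 genes, and the 3 windows belong to Sst and Adcyap1. The Adcyap1 windows overlap and hold the same site, counted from different annotated starts. The letters were in 3.21% of the 32851 windows of all genes, which is background only. This motif was the only one searched and the Adcyap1 windows repeat a site, so no excess can be read from that share. The match began 48 bases before an annotated start of Sst and 91 bases before one of Adcyap1. Windows were not listed for Pnoc and Penk. In both sequences the capitals mark the motif.
Sst, minus strand, chr16:23890876-23890902: cctccttggcTGACGTCagagagagag
Adcyap1, plus strand, chr17:93198916-93198942: actaggatgcTGACGTCttttactgat

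The libraries held 1875971 to 6641695 gene counts and 14090 to 19675 genes with a count, lowest in HSA-NRTN 2 for depth and in wild-type 1 for genes. All 7 motor neuron markers, among them Chat, were present, with a sum of 3265 to 5395 CPM (read counts scaled to library size with TMM factors) in HSA-NRTN and 2445 to 4068 CPM in wild-type libraries. HSA-NRTN 2 also had the highest astrocyte sum, 748 CPM, and oligodendrocyte sum, 1429 CPM. Of the astrocyte sum, 665 CPM was Slc1a2. Gfap and Aldh1l1 were also highest in HSA-NRTN 2, each at 17.8 CPM. Slc1a3 was at 0 there, Aqp4 was higher in wild-type 2 (43.0 against 32.4 CPM) and Gja1 in wild-type 1 (52.1 against 15.1 CPM). Wild-type 1 had the highest share of spike-in counts, 4.86%. In pools, fewer cells that express a gene and less RNA per cell cannot be told apart.

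Per kilobase of exon, which allows levels to be compared between genes, Uts2b and Cck led. Uts2b was at 219 ± 80.4 CPM per kb and Cck at 127 ± 35.9 CPM per kb in wild-type libraries (SD, n = 5), and Uts2b exceeded Cck in 10 of 10 libraries. The next gene in wild-type libraries, Gal, was at 4.99 ± 5.90 CPM per kb. From Gal down through Npy, Penk, Pnoc, Pdyn and Adcyap1, neighbours overlapped within 1 SD, and Sst and Tac1 had no count. In HSA-NRTN libraries Uts2b was at 508 ± 285 and Cck at 97.7 ± 43.7 CPM per kb, and Sst (39.9 ± 69.4) and Pnoc (11.2 ± 11.7) came next by mean. Sst exceeded Pnoc per kilobase in 1 of 5 HSA-NRTN libraries, and without HSA-NRTN 1 its mean fell from 28.8 to 6.66 CPM.

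**Figure D1:**
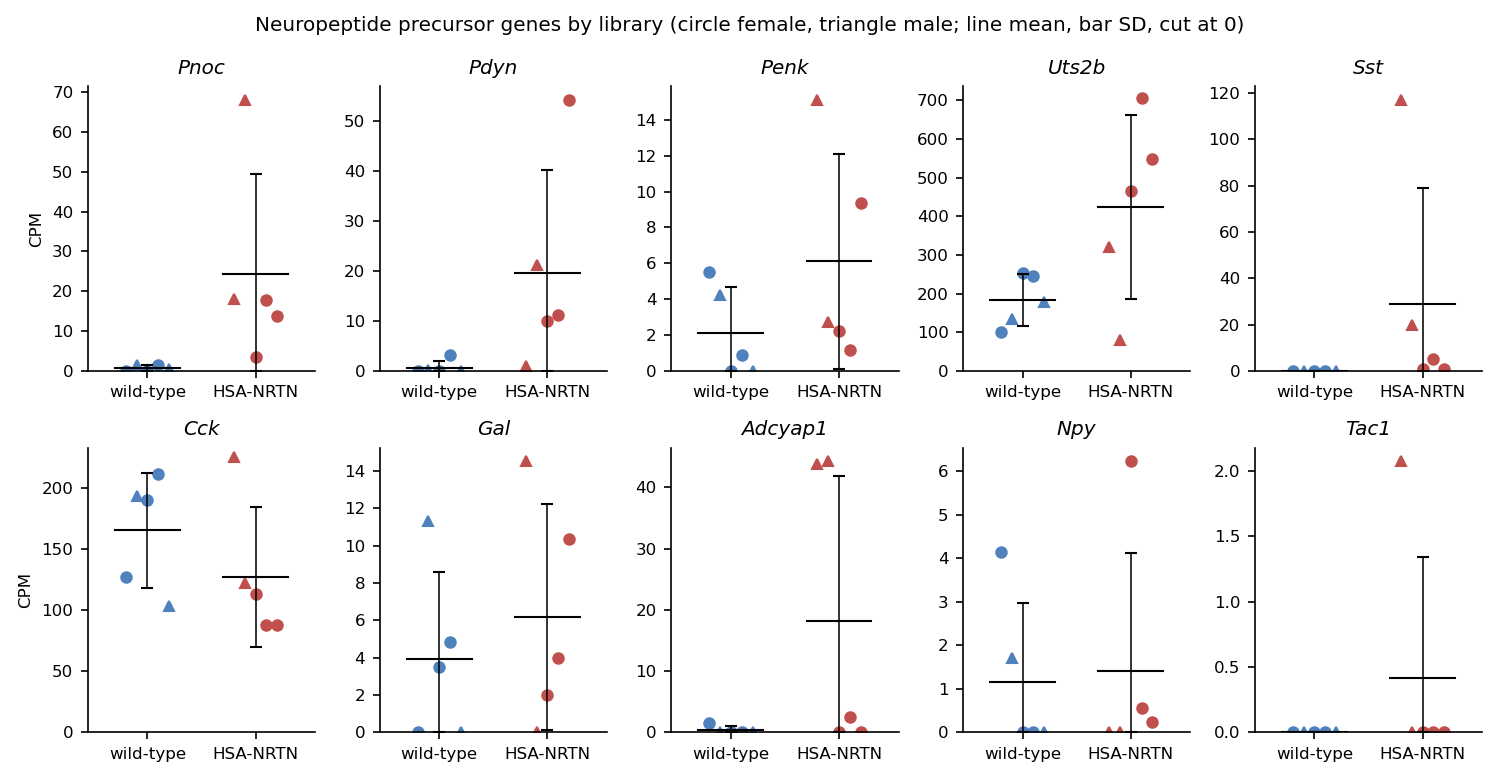
Level of each of the 10 genes (vertical axis, CPM, linear from 0, a separate scale per gene) in the 5 wild-type and 5 HSA-NRTN libraries; circles are females, triangles males, the line is the mean and the bar the SD, drawn no lower than 0. Pnoc and Sst show no overlap between the groups, and the mean of Sst is set by 1 library at 117 CPM. The lowest HSA-NRTN value of Sst, 0.740 CPM, is from 3 counts, so its groups could overlap within counting error.

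Among the 6 fitted genes, Pnoc and Pdyn had the largest genotype differences, and both are opioid precursors. Pnoc encodes the precursor of nociceptin, the ligand of the receptor Oprl1. Pnoc was at 18.1, 68.1, 3.48, 17.8 and 13.8 CPM in HSA-NRTN libraries 1 to 5 and at 0, 1.42, 0, 1.38 and 0.595 CPM in wild-type libraries 1 to 5. Every HSA-NRTN library lay above every wild-type library, and the lowest HSA-NRTN value was that of replicate 3. The means were 24.3 ± 25.2 and 0.678 ± 0.700 CPM (SD, n = 5 each), from 387 and 16 counts. The fitted log2 fold change of Pnoc was 5.09 (SE 0.99), and it was 4.23 without HSA-NRTN replicate 2, which held 54.6% of its CPM summed over the libraries. In the other 4 HSA-NRTN libraries the mean was 13.3 ± 6.83 CPM.

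Pdyn encodes prodynorphin, the source of dynorphins, which act at the kappa receptor Oprk1. Its level was 0.890, 21.1, 10.1, 11.3 and 54.2 CPM in HSA-NRTN libraries 1 to 5. In wild-type libraries 1 to 5 it was 0, 0.283, 0, 3.10 and 0 CPM. In 4 of 5 HSA-NRTN libraries Pdyn was above every wild-type library, and HSA-NRTN 1 lay below wild-type 4. The fitted log2 fold change was 4.70 (SE 1.24), 3.86 without HSA-NRTN replicate 5 and 7.77 without wild-type replicate 4. HSA-NRTN 5 held 53.7% of the summed CPM of Pdyn, and wild-type 4 held 18 of the 19 wild-type counts.

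Penk encodes proenkephalin, the source of enkephalins, which act at the mu and delta receptors. Penk was at 15.1, 2.70, 2.20, 1.14 and 9.37 CPM in HSA-NRTN libraries 1 to 5 and at 5.51, 4.25, 0, 0.861 and 0 CPM in wild-type libraries 1 to 5. The groups overlapped, with only HSA-NRTN 1 and 5 above every wild-type library. The log2 fold change of Penk was 1.53 (SE 1.16), 0.87 without HSA-NRTN replicate 1 and 2.27 without wild-type replicate 1, and 114 counts stood against 44. An antisense gene, A830012C17Rik, shares 233 exon bases with Penk and had 0 counts.

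Oprl1, the nociceptin receptor gene, was the best measured opioid receptor, at 85.1 ± 36.2 CPM in HSA-NRTN and 106 ± 15.3 CPM in wild-type libraries (log2 fold change -0.31, SE 0.32). Oprk1 had 10 counts in 3 HSA-NRTN libraries and 108 counts in 5 wild-type libraries. Its HSA-NRTN maximum of 1.48 CPM lay below its wild-type minimum of 1.98 CPM. Oprm1 had counts in 3 HSA-NRTN libraries and in none of the wild-type libraries, with a maximum of 1.48 CPM. The low-count filter kept Oprl1 alone of the 4 opioid receptor genes, so no fitted difference is given for the others.

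Among the other precursors, Uts2b had the most counts and was higher in most HSA-NRTN libraries. Uts2b encodes urotensin II-related peptide, a ligand of the receptor Uts2r. Its level was 321, 78.9, 465, 706 and 548 CPM in HSA-NRTN libraries 1 to 5 and 102, 135, 254, 246.1 and 178 CPM in wild-type libraries 1 to 5. HSA-NRTN 2 was below every wild-type library and the other 4 HSA-NRTN libraries were above every one. The means were 424 ± 238 and 183 ± 67.1 CPM (SD, n = 5 each), and the log2 fold change was 1.22 (SE 0.43), between 0.95 and 1.48 with 1 library left out.

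Cck encodes cholecystokinin and came next to Uts2b in level per kilobase. It was at 226, 123, 113, 87.6 and 87.8 CPM in HSA-NRTN libraries 1 to 5. In wild-type libraries 1 to 5 it was 128, 194, 191, 211 and 104 CPM. The groups overlapped, HSA-NRTN 1 had the highest value of all and HSA-NRTN 4 and 5 the lowest. The log2 fold change of Cck was -0.38 (SE 0.30), the only one below 0 among the 6 fitted genes, where 48.6% of all genes kept were above 0, and in males alone it was 0.22 (SE 0.48).

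Sst encodes somatostatin. Sst had 395, 37, 5, 35 and 3 counts in HSA-NRTN libraries 1 to 5, or 117, 19.996, 0.916, 4.99 and 0.740 CPM, and 0 counts in all 5 wild-type libraries. Every HSA-NRTN library had a count, but replicate 1 held 81.5% of the summed CPM. A wild-type count of 0 over the group allows up to 3 counts, or 0.130 CPM, for counting error only, so the pooled level in HSA-NRTN libraries was at least 167-fold higher. Without HSA-NRTN replicate 1 it was at least 33.4-fold higher. Sst did not pass the low-count filter, and in HSA-NRTN libraries 3 to 5 together it had 43 counts.

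Adcyap1 encodes pituitary adenylate cyclase-activating polypeptide. It was at 43.9, 44.3, 0, 2.57 and 0 CPM in HSA-NRTN libraries 1 to 5, and of the wild-type libraries only replicate 1 had counts, 7 of them or 1.61 CPM. HSA-NRTN 1 and 2 were high, 2 other HSA-NRTN libraries had no count, and the groups overlapped. HSA-NRTN replicates 1 and 2 had 148 and 82 counts of Adcyap1 and the other 3 together 18. Its receptor gene Adcyap1r1 was at 101 ± 50.1 CPM in HSA-NRTN and 55.8 ± 32.2 CPM in wild-type libraries (log2 fold change 0.86, SE 0.41).

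Gal, Npy and Tac1 gave little difference or few counts. Gal encodes galanin and was at 14.5, 0, 2.01, 3.99 and 10.4 CPM in HSA-NRTN libraries 1 to 5 and 0, 11.3, 3.52, 4.82 and 0 CPM in wild-type libraries 1 to 5, with a log2 fold change of 0.66 (SE 1.22). It was 0.086 without HSA-NRTN replicate 1 and 1.56 without wild-type replicate 2. The groups of Gal overlapped over nearly their whole range. Npy, the gene of neuropeptide Y, was at 0, 0, 6.23, 0.570 and 0.247 CPM in HSA-NRTN libraries 1 to 5 and 4.13, 1.70, 0, 0 and 0 CPM in wild-type libraries 1 to 5. Tac1, the gene of substance P and neurokinin A, had 7 counts, all in HSA-NRTN 1 (2.08 CPM).

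By pooled CPM, 9 of the 10 genes were higher in HSA-NRTN libraries, all but Cck. Of all genes with at least 1 count, 57.0% were higher in that direction, and of those with at least 10 counts, 52.9%. Without HSA-NRTN 1 or HSA-NRTN 3 the number was 8. The groups did not overlap for Pnoc and Sst. For Sst this rests on 5 counts in HSA-NRTN 3 and 3 counts in HSA-NRTN 5, the latter at 0.740 CPM. An allowance of 3 counts in wild-type 2 is 0.850 CPM, so within counting error the groups of Sst could overlap. No share was worked out for genes below the low-count filter, such as Sst. Of the 11630 genes kept, of which Sst is not one, 1.25% did not overlap and 0.645% had every transgenic library above the highest wild-type one.

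The low-count filter kept 6 of the 10 genes, Pnoc, Pdyn, Penk, Cck, Gal and Uts2b. Pnoc passed it through its HSA-NRTN libraries, with at least 19 counts in each against at most 8 in any wild-type library. Pdyn passed it mainly through HSA-NRTN 2, 3, 4 and 5, with 39, 55, 79 and 220 counts. Wild-type 4 had 18 counts of Pdyn and no other wild-type library had more than 1. Because the genes were chosen with their genotype differences known, the shares of all genes below are background, and no excess can be read from them. In the quasi-likelihood test of edgeR, 0 of the 6 passed an adjusted p of 0.05, against 0.00860% of all genes tested, and 3 (Pnoc, Pdyn and Uts2b) had an unadjusted p under 0.05, against 4.83%. Without HSA-NRTN replicate 3 Pnoc passed. DESeq2 with its own filtering called Pnoc, Pdyn and Sst, against 0.800% of its genes, and DESeq2 on the genes kept for edgeR called Pnoc, against 0.530%. limma voom called 0 of the 6, with 3 at an unadjusted p under 0.05, against 0.0258% and 5.76% of genes. Without a filter, edgeR called Pnoc, Pdyn, Sst and Adcyap1, against 0.311%. In the authors' deposited table Sst (log2 fold change 2.44), Pnoc (2.42) and Pdyn (1.47) were past that threshold and Uts2b (0.88) was not, against 1.04% of its genes. Those fold changes may be shrunken, which the sources used here do not say. There Npy has a log2 fold change of 0.027 but a Wald statistic (a score) of -0.40, so the fold changes are not those behind the statistics. They are therefore not to be set against the fold changes fitted here.

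**Figure D2:**
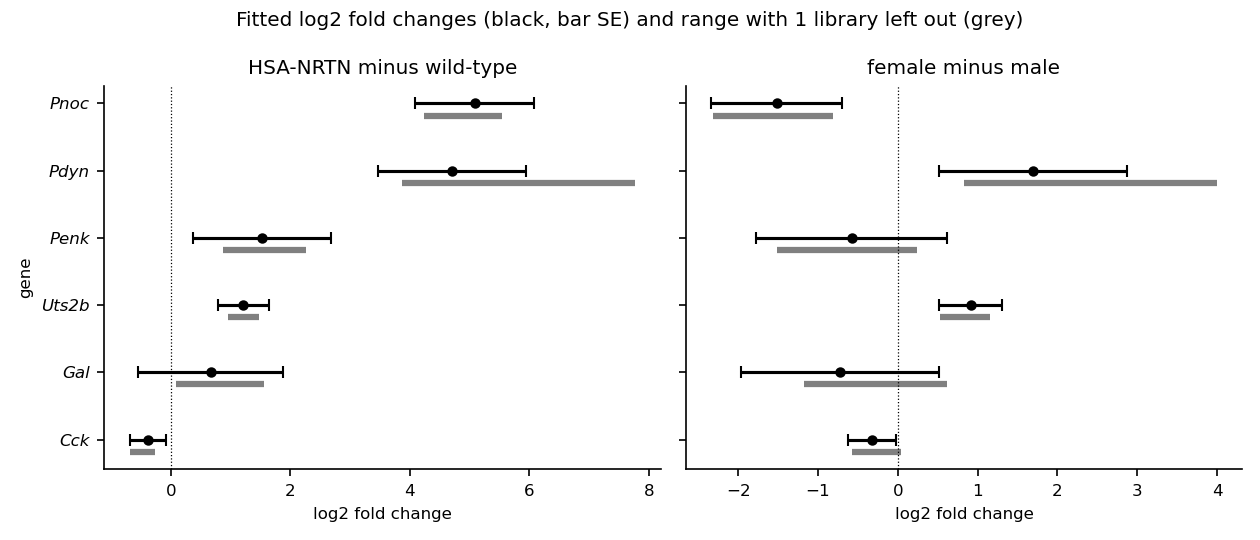
Fitted log2 fold change (horizontal axis) of the 6 genes kept by the filter, for genotype on the left and sex on the right; points are estimates, bars SE, and grey bars the range when 1 library at a time was left out. The genotype range of Pdyn runs from 3.86 to 7.77, and that of Cck stays below 0.

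The share that 1 library held of each gene differed widely between the genes. Of the 9 genes with at least 10 counts, 3 had over 50% of their summed CPM in a single library: Sst in HSA-NRTN 1, Pnoc in HSA-NRTN 2 and Pdyn in HSA-NRTN 5. Among all genes with that many counts, 18.0% did. Just under the threshold were Npy at 48.4% (HSA-NRTN 3) and Adcyap1 at 48.0% (HSA-NRTN 2), and just above it Pdyn at 53.7%. By raw counts the genes over the threshold were Pdyn, Sst, Npy and Adcyap1, where 16.2% of all genes were over it. The smallest top shares were those of Cck, 15.4%, and Uts2b, 23.3%.

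**Figure D3:**
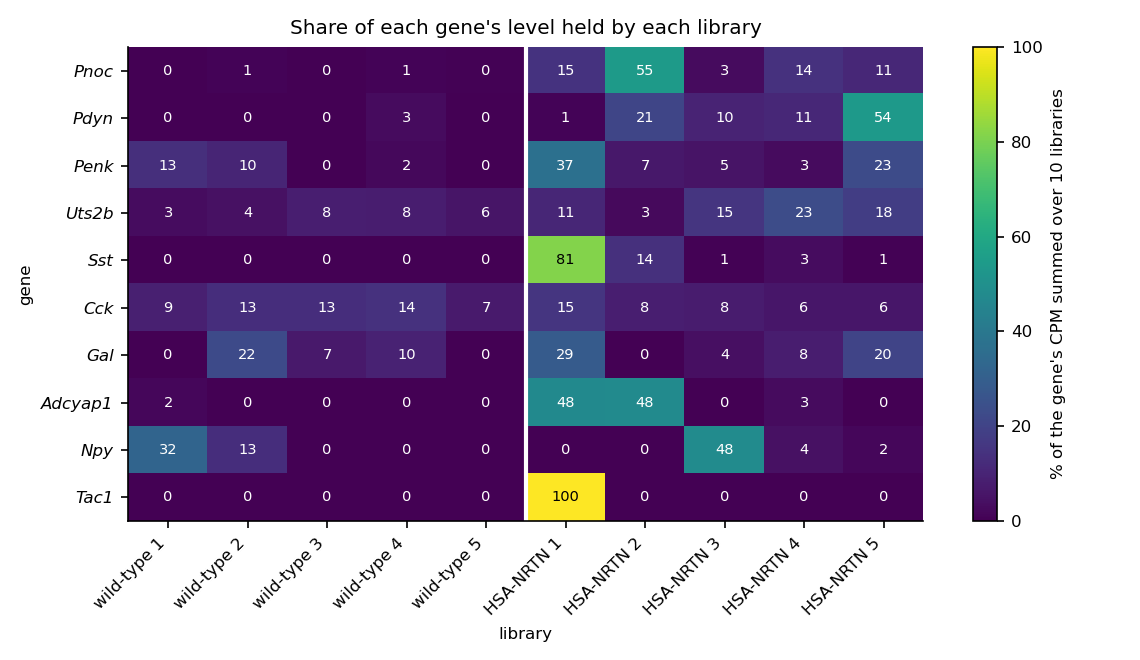
Percent of each gene's CPM, summed over the 10 libraries, that each library held (colour scale 0 to 100, value printed in each cell; rows are genes, columns libraries). Sst is concentrated in HSA-NRTN 1 at 81.5%, while Cck has no library above 15.4%.

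The 2 animals with high Sst and Adcyap1, HSA-NRTN 1 and 2, were both male, and they were the only males of that group. Gad2, a gene of GABA synthesis and a marker of inhibitory interneurons, was at 38.9 and 53.0 CPM in these 2 libraries and at most 8.13 CPM in any other. Gad2 was picked after its values were seen, and the other inhibitory markers were mixed. Gad1 was highest in HSA-NRTN 3 (6.96 CPM), Slc6a5 in wild-type 1 (146 CPM) and Pax2 in HSA-NRTN 5 (1.73 CPM). Slc32a1 and Lhx1 were highest in HSA-NRTN 2 (25.9 and 8.65 CPM), and Slc32a1 was also at 25.9 CPM in wild-type 1. The whole inhibitory interneuron list of 7 markers was not highest in HSA-NRTN 1 and 2 alone: its sum was 12.8 to 169 CPM in HSA-NRTN and 0.688 to 172 CPM in wild-type libraries, 4 of 7 were higher by pooled CPM in HSA-NRTN, and Lhx5 was at 0. The excitatory interneuron list had sums of 24.2 to 183 CPM in HSA-NRTN and 2.55 to 301 CPM in wild-type libraries, with 6 of 7 markers higher in HSA-NRTN and Ebf2 at 0. Astrocyte sums were 46.4 to 748 against 50.7 to 295 CPM (4 of 6 higher) and oligodendrocyte sums 250.6 to 1429 against 206 to 610 CPM (5 of 6 higher), no defining marker being at 0. Sums were low for microglia (1.48 to 10.8 against 2.18 to 15.0 CPM, 3 of 6 higher) and for endothelial cells (6.96 to 25.9 against 1.03 to 14.9 CPM, 4 of 5 higher). They were also low for cerebrospinal fluid contacting neurons (0 to 2.08 against 0 to 2.24 CPM, 3 of 4 higher) and ependymal cells (1.28 to 21.6 against 1.89 to 15.6 CPM, 0 of 4 higher, with Rarres2, Ccdc153 and Tmem212 at 0). Without HSA-NRTN libraries 1 and 2, left out after their values were seen, Pnoc had 200 counts and Pdyn 354 counts in the other 3. The 5 wild-type libraries had 16 and 19 counts. HSA-NRTN 5 held 220 of these Pdyn counts and had the highest excitatory interneuron sum of its group, 183 CPM. Wild-type 5, with the highest such sum of its group, 301 CPM, had 0 counts of Pdyn. The part of other cells in the levels of Sst, Adcyap1, Pnoc and Pdyn was not tested.

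**Figure D4:**
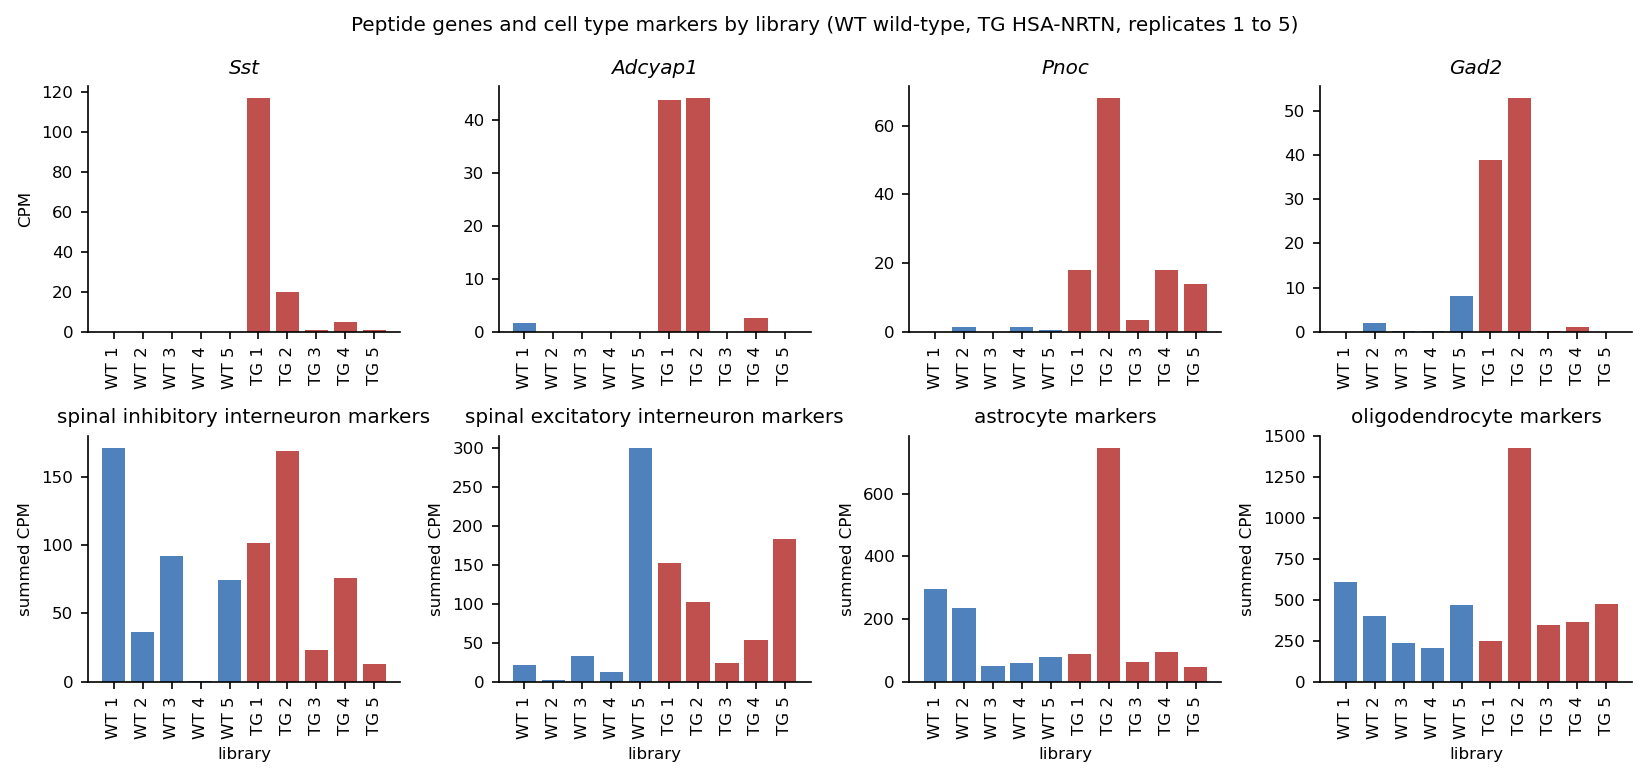
Bars give CPM of Sst, Adcyap1, Pnoc and Gad2 (upper row) and the summed CPM of 4 marker lists (lower row) in each library, wild-type (WT) in blue and HSA-NRTN (TG) in red, each panel with its own scale from 0. Gad2 is at 38.9 and 53.0 CPM in HSA-NRTN 1 and 2, and the astrocyte sum of 748 CPM, of which 665 CPM is Slc1a2, is in HSA-NRTN 2. Gad2 was chosen after its values were seen, and the other inhibitory markers are not drawn singly.

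Sex was not used to choose the genes, and it was tested with genotype in the model. None of the 6 fitted genes passed an adjusted p of 0.05 in edgeR, against 0.00860% of all genes, and 1 had an unadjusted p under 0.05, against 11.2%. The gene with an unadjusted p under 0.05 was Uts2b, with a log2 difference of 0.91 (SE 0.39) between females and males, an adjusted p of 0.420 by edgeR and means of 387 ± 225 CPM in 6 females and 178 ± 104 CPM in 4 males. The lowest adjusted p for Uts2b with 1 library left out was 0.109, without wild-type replicate 1. For Pnoc the difference between females and males was -1.52 (SE 0.82), for Pdyn 1.69 (SE 1.18), for Penk -0.58 (SE 1.19), for Gal -0.72 (SE 1.24) and for Cck -0.32 (SE 0.30). The signs for Penk, Gal and Cck turned when HSA-NRTN replicate 1 was left out, to 0.24, 0.072 and 0.040.

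Other tools called 1 gene of the group by sex or none. limma voom called 0 of the 6 fitted genes, with 2 at an unadjusted p under 0.05, against 10.4% of genes. Sst was called lower in females by DESeq2 with its own filtering, against 1.77% of its genes, and by edgeR without a filter, against 1.21%. Its means were 1.11 ± 1.94 CPM in 6 females and 34.3 ± 56.0 CPM in 4 males, and both wild-type males were at 0. The male mean came from HSA-NRTN 1 and 2 alone, and the 3 females with a count were the HSA-NRTN ones.

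The genotype difference was also compared between the sexes. In females the Uts2b log2 fold change was 1.53 (SE 0.37), while in males it was 0.36 (SE 0.60). The difference between these, tested as an interaction, was 1.15 (SE 0.72) with an adjusted p of 0.922 by edgeR. For Cck it was -1.11 (SE 0.55), also with an adjusted p of 0.922, from -0.85 in females and 0.22 in males. Neither passed, and 0 of the 6 genes had an unadjusted p under 0.05, against 5.14% of all genes. DESeq2 called 0 of the 9 it gave an adjusted p, against 0.101% of its genes. limma voom called 0 of 6, with 1 at an unadjusted p under 0.05, against 4.02%. Without a filter edgeR called Adcyap1, against 0.134% of genes. Outside the 2 HSA-NRTN males, this gene had counts in only 2 libraries, 1 female of each genotype.

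The genes most like each fitted precursor were ranked by Pearson's r of log2(CPM + 1) over the 10 libraries, which share depth and library effects, as a description. For Pnoc these were Hrk (r = 0.961), Notch4 (0.940) and Gabrg3 (0.939), and all had their highest level in HSA-NRTN 2, as Pnoc did. For Pdyn they were Triobp (0.959), Htr1b (0.892) and Lypd1 (0.872), all highest in HSA-NRTN 5. For Uts2b they were Rfc1 (0.956), Ddt (0.942) and Ints2 (0.941). The closest genes to Penk were Rasd1 (0.936), Tpm3 (0.890) and Lims1 (0.884), to Gal Rnf135 (0.923), 1500026H17Rik (0.922) and Rpl36a-ps2 (0.921), and to Cck Gm39244 (0.898), R3hdm4 (0.888) and Abhd12 (0.881).

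The genes that cut, store and degrade peptides were counted as lists beside the precursors. Of 12 fitted processing enzymes, 8 were estimated above 0 and 4 below it on the log2 scale (median 0.15), and the median of all genes was -0.015. Cpe, the carboxypeptidase that trims basic residues, was at 934 ± 259.2 and 945 ± 362 CPM in HSA-NRTN and wild-type libraries. Scg5, a chaperone of the convertase Pcsk2, was at 234 ± 62.1 and 231 ± 102 CPM, and Pcsk1n, an inhibitor of the convertase Pcsk1, at 181 ± 79.6 and 169 ± 26.6 CPM. For 16 dense core vesicle genes the median was -0.11, and Rab3a, a vesicle GTPase, was at 1021 ± 213 and 1040 ± 250 CPM. Syt4, a synaptotagmin, was at 800.1 ± 59.98 and 852 ± 149 CPM. For 11 peptide degrading enzymes the median was -0.29, and Npepps, an aminopeptidase, was at 144 ± 16.1 and 149 ± 22.4 CPM. The other 2 of highest level in that list were Ide (58.9 ± 12.0 and 45.7 ± 13.4 CPM) and Prep (48.3 ± 27.1 and 59.3 ± 16.3 CPM).

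Receptors of the other peptides had a median of -0.48 over 6 fitted of 20 found. Vipr2, a receptor shared by the Adcyap1 peptide, was at 84.5 ± 34.5 CPM in HSA-NRTN and 151 ± 25.6 CPM in wild-type libraries (log2 fold change -0.83, SE 0.28). Tacr1, the receptor of substance P, was at 35.4 ± 18.6 and 46.0 ± 27.8 CPM. Uts2r had 4 counts in each group. Of 9 fitted other precursors, 6 were estimated above 0 and 3 below it (median 0.83). The paralog of Uts2b, Uts2, was at 353 ± 122 CPM in HSA-NRTN and 199 ± 112 CPM in wild-type libraries (log2 fold change 0.83, SE 0.40). Nts, the neurotensin gene, was at 140 ± 67.2 and 45.9 ± 21.2 CPM (log2 fold change 1.60, SE 0.43), and Cartpt was at 132 ± 157 and 22.5 ± 25.2 CPM (2.53, SE 0.99).

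In none of these lists did edgeR call a gene by genotype or sex. By genotype 1 receptor of the other peptides, 1 processing enzyme, 1 degrading enzyme and 2 other precursors had an unadjusted p under 0.05, against 4.83% of all genes. By sex 2 receptors of the other peptides, 2 processing enzymes, 4 dense core vesicle genes, 1 degrading enzyme and 1 other precursor did, against 11.2% of all genes. Of the 16 dense core vesicle genes, 15 were estimated lower in females and 1 higher (median -0.44), where the median of all genes was 0.011. Whether this list differs from other genes by sex was not tested. By genotype DESeq2 with its own filtering and limma voom called none either, and DESeq2 on the genes kept for edgeR called Nts.

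**Figure D5:**
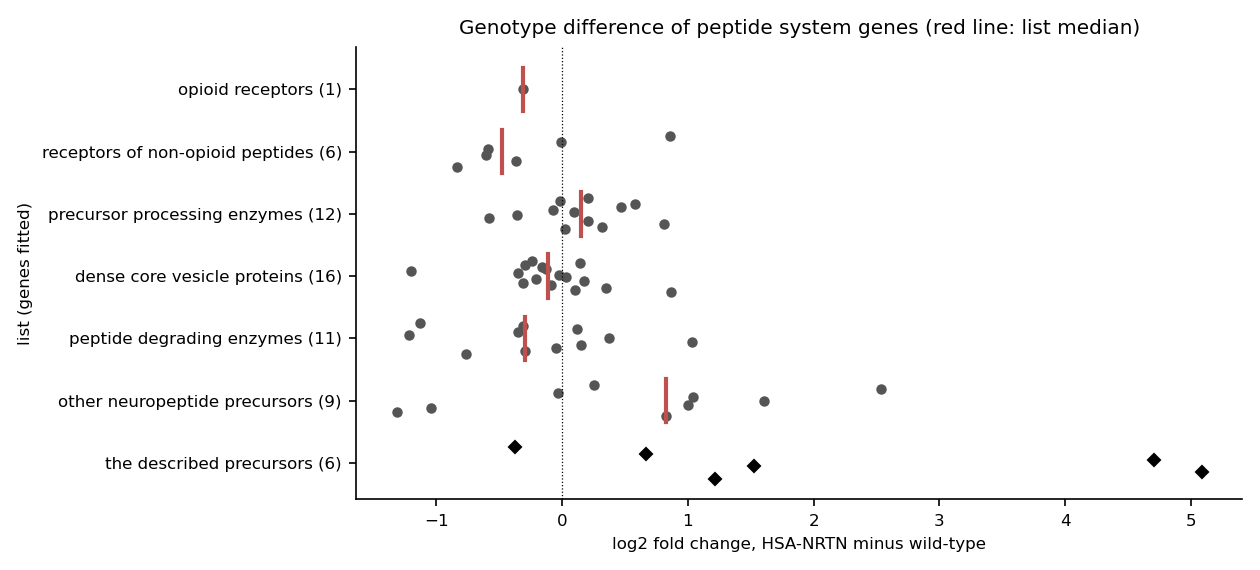
Log2 fold change between HSA-NRTN and wild-type libraries (horizontal axis) for each fitted gene of 6 lists of the peptide system, with the number fitted beside the list name; red lines are list medians and black diamonds the 6 described precursors. The diamonds of Pdyn (4.70) and Pnoc (5.09) lie to the right of every other point, and the largest value in the lists is that of Cartpt (2.53).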

How the data were processed

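RNA from 10 laser-captured motor neuron pools was measured as 1 Smart-seq2 library each, and group and sex came from the labels. Per the submitters' processing notes, the authors used STAR 2.5.0a, HTSeq and the build GRCm38.p6. The annotation release is not given in the sources used here. Deposited raw counts per gene were used for all levels and tests; 92 spike-ins and 5 tally rows were left out of library sizes. The authors' deposited normalised signal, tested on the files, equals the counts times 1 factor per library and was not used further. The authors' deposited comparison table gave log2 fold changes, a Wald statistic (a score) and p-values for the genes named from it. The kit does not mark strand.

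Here counts were filtered with filterByExpr (11630 of 26070 genes with a count), scaled by TMM and tested with edgeR 4.0.16 by quasi-likelihood with Benjamini-Hochberg adjustment over all genes kept. The fits were genotype alone, sex with genotype, and their interaction. DESeq2 1.42.0, limma 3.58.1 voom, other scalings and filters, sex and the 2 runs of animal numbers as covariates, and left-out libraries were alternatives. The tests were tested on simulated data. Depth was 1875971 to 6641695 counts, and limits from a count of 0 (3 counts) cover counting error only. The labels make each pool 1 mouse, so p-values measure the spread between mice and captures together.

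The 10 genes, the pathway and marker lists and the tests were chosen with earlier results of these data known. Named genes were the 10 precursors, the 3 of highest CPM per kb in each list, genes called in a list, and the 3 most correlated with each fitted precursor. Uts2r, as the receptor of Uts2b, and Gad2, from the marker lists, were named outside this rule after their values were seen. Galr3 and Kiss1 were not analysed here. A gene and a sequence that this rule and the core search would name are not reported here. Sequences came from GENCODE M21 and RefSeq.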

Additional observations from a re-analysis of the deposited data

Results flagged for a closer look

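In 7 of 18 sets of 5 libraries with a count, 1 library stood far from the other 4 by Dixon's criterion. Chance meets it in about 1 in 20 sets of normally distributed values, which levels near 0 are not. A set with counts in only 1 library, as for Tac1 and for Adcyap1 in wild-type libraries, meets it by construction. The 7 sets therefore cannot be read as an excess over that rate. Because levels of 0 and of single libraries recur across these genes, the sets are not independent. In HSA-NRTN libraries, Pnoc reached 68.1 CPM in replicate 2, where the next highest library had 18.1 CPM. Sst reached 117 CPM in replicate 1, where the next had 19.996 CPM, and Cck reached 226 CPM in replicate 1, where the next had 123 CPM. Npy reached 6.23 CPM in replicate 3, where the next had 0.570 CPM. Tac1 reached 2.08 CPM in replicate 1, and the other 4 libraries had none. In wild-type libraries, Pdyn reached 3.10 CPM in replicate 4, where the next had 0.283 CPM, and Adcyap1 reached 1.61 CPM in replicate 1, the only one with a count. HSA-NRTN 1 was the high library for 3 of these 7.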

How the results depend on the processing

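The number of genes called over all genes depended on the tool and filter. For genotype it was 1 in edgeR, 126 in DESeq2 with its own filtering, 59 in DESeq2 on the genes kept for edgeR, 81 without a filter, 3 in limma voom, 5 with sex as a covariate, 0 with runs of animal numbers as a covariate, 0 in females only, 0 in males only, and 0 to 13 with 1 library left out, the 13 without HSA-NRTN replicate 3. For sex it was 1, against 225, 105, 315 and 0 in those first 4 alternatives (limma voom last) and 1 to 176 with 1 library left out, the 176 without wild-type replicate 1. For the interaction it was 0, against 16, 8 and 35 with DESeq2, DESeq2 on kept genes and no filter. The number of precursors with a single dominant library was 3, 6 at a threshold of 33% (34.8% of all genes) and 1 at 75% (7.96% of all genes). The genotype log2 fold changes of Pnoc, Pdyn, Penk, Uts2b and Gal kept their sign in all alternatives run (Pdyn was not kept in males only), and Cck turned to 0.22 in males only. By sex, Penk turned to 0.24, Cck to 0.040 and Gal to 0.072 without HSA-NRTN replicate 1, and Gal to 0.58 in limma voom and 0.62 without wild-type replicate 2. With 1 or 2 libraries left out these differences ranged from -1.99 to 0.24 for Penk, from -0.58 to 0.040 for Cck and from -1.17 to 0.62 for Gal. The causes were not tested. Npy and Tac1 had few counts (63 and 7), while Sst and Adcyap1 had 10 or more counts in only 3 libraries each, and none of these 4 entered the main test. No paired analysis was possible because the replicate numbers follow record order and the labels tie no animals across the groups.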

Other observations

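Outside the rule for named genes, and chosen after their values were seen, some further genes of the lists had counts almost wholly in 1 genotype. None was kept by the low-count filter, so no fitted difference is given, and those below are examples. The share of all low-count genes with such counts was not worked out, so no excess can be read from these examples. HSA-NRTN 3 and 4 had the most genes with a count, 19233 and 19675. Wild-type libraries had 14090 to 17492, and the other HSA-NRTN libraries 14858 to 16255. Pcsk5, a convertase that cuts precursors, had 3 counts in 1 HSA-NRTN library and 113 counts in 4 wild-type libraries, and it was at most 0.550 CPM in the first group and 7.92 CPM in the second. Tacr2, a tachykinin receptor gene, had 42 counts in 3 HSA-NRTN libraries and 1 count in 1 wild-type library. Sstr1, a somatostatin receptor gene, had 27 counts in 4 HSA-NRTN libraries and 0 in wild-type libraries, so the ligand and this receptor were both without a count in all 5 wild-type libraries. Others had counts in HSA-NRTN libraries and none in wild-type libraries: Nppb had 72 counts in 2 libraries, Agrp 17 in 3, Edn3 15 in 2, Crh 13 in 4, Cckar 12 in 2 and Syt9 10 in 2. Edn1 had 15 counts in 1 HSA-NRTN library and 1 count in 1 wild-type library, and Sstr2 had 25 counts in 4 and 3 counts in 1.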
